A study of Gossypium hirsutum with 6 samples.

Results

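The 52 MADS-box genes described here were read out of an RNA-seq experiment on cultured cotton ovules. They are the protein-coding genes whose description contains the word MADS and whose counts summed to 60 or more over the 6 samples. The files list 100562 genes, of which 180 protein-coding genes are described as MADS, and 44055 protein-coding genes of any description reach the same sum. Ovules of wild type *G. hirsutum* cv. ZM24 were taken on the day of anthesis and cultured in the dark for 2 d with water (CK, n = 3) or with 10 μmol/L putrescine (Put, n = 3). Putrescine is a diamine from which plants make longer polyamines. No transgene or mutation was used, so the groups share their genotype and differ in the supplement. The collected ovules were divided at random into replicates, so p-values measure the spread between these samples, which may be technical. Each sample is a bulk of whole ovules with their young fibers, in which fewer cells of a type and less RNA per cell cannot be told apart.

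MADS-box genes encode transcription factors that bind DNA through a conserved domain. In plants many act as MIKC proteins, in which a K-box follows the MADS domain and lets different MADS proteins assemble into complexes. In *Arabidopsis* the AGAMOUS clade (AGAMOUS, the SHATTERPROOF genes and SEEDSTICK) specifies carpel and ovule identity, SEPALLATA proteins bridge the other MADS proteins within complexes, and AGL6 is their close relative. *G. hirsutum* is an allotetraploid, so most genes exist as a copy on an A chromosome and a copy on a D chromosome. Genes are named below by their NCBI locus and chromosome in Gossypium_hirsutum_v2.1, with start and end as in the files.

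The libraries held 19131678 to 19463059 counts in CK and 16974557 to 18454734 in Put, and no pair of columns was identical. The 52 genes took 0.167% to 0.174% of the counts of a library. Reads were aligned to both subgenomes, and how reads shared by near-identical copies were counted is not given in the sources used here, so counts of close copies may have been exchanged. Of 6 ovule markers described as AGAMOUS-like or AGL11, 4 are members chosen for their counts, so their level is no check of the tissue. The summed FPKM of the 6 (fragments per kilobase and per unit of library size, a level that corrects for gene length) was 527 to 531 in CK and 536 to 548 in Put. The YABBY list stood near 0, with 10 of its 21 genes listed at 0 in every sample and a summed FPKM of at most 0.894. Of ovule markers outside the family, all 3 tested BEL1 homologs and all 6 AINTEGUMENTA genes were lower, with summed FPKM of 25.4 to 28.4 and 25.6 to 27.9 in CK and of 18.4 to 19.2 and 13.5 to 14.1 in Put. Lists of other cell types moved with the treatment as well. The fiber list (102 genes for E6 and expansins, 16 listed at 0, and of 58 tested 20 higher and 16 lower) spanned 2864 to 2926 summed FPKM in CK and 11140 to 11320 in Put, and the pollen list (34 genes, 9 listed at 0, and of 18 tested 11 higher and 1 lower) 638 to 659 in CK and 945 to 969.9 in Put. The leaf list (57 genes, 8 listed at 0, and of 37 tested 1 higher and 13 lower) spanned 192 to 195 in CK and 157 to 162 in Put, while the petal and stamen list (7 genes, 1 listed at 0, and of 3 tested 1 higher and 1 lower) spanned 31.7 to 39.2 in CK and 29 to 35.8 in Put. The members LOC107957589, LOC107909434 and LOC107945819 make up the 3 tested genes of the petal and stamen list. Its level is therefore no check of the tissue either. Over all tested genes 18.4% were higher and 18.2% lower. The part of these shifts in the MADS-box results was not tested.

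MADS-box transcripts in these ovules came from few genes. The summed FPKM of the 52 genes was 1304 ± 4.2 (SD, n = 3) in CK and 1356 ± 6.67 in Put, and the 10 genes with the highest level made up 73.4% of it. The AGAMOUS clade (8 genes) held 50.3% of the sum in CK and 48.3% in Put. The SEPALLATA clade (9 genes) held 35.7% and 37.2%, the AGL6 clade (6 genes) 6.34% and 7.56%, and the B class genes of petals and stamens (4 genes) 3.72% and 3.4%. The remaining 25 genes held the rest. They comprise 8 MIKC* genes, 3 type I genes, 11 other MIKC genes and 3 genes placed in no clade because their names conflict. The name and entry of LOC107899219, LOC107924817 and LOC107890633 disagree as well, but these were counted in the group of their description. Averaged over the 6 samples, 4 genes lay at 100 FPKM or more, 21 at 10 or more, and 10 below 1.

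**Figure D1:**
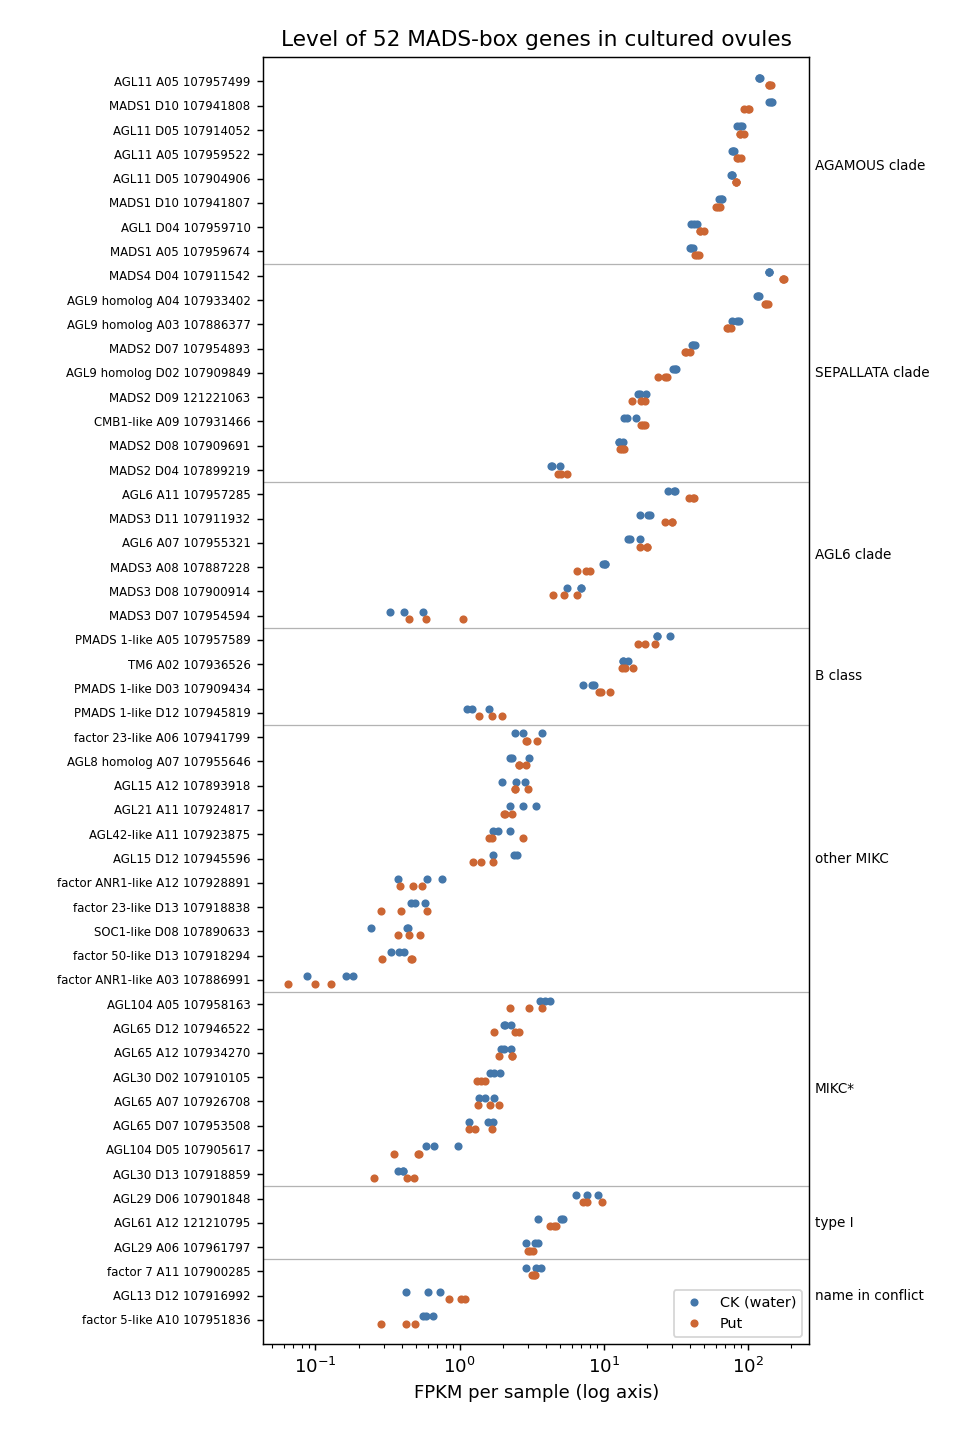
FPKM of each of the 52 MADS-box genes in the 3 CK samples (blue) and 3 Put samples (orange) on a log axis, grouped by clade and labelled with the short name, chromosome and locus number. The AGAMOUS clade and the upper SEPALLATA genes reach 42.5 to 159 FPKM as means over the 6 samples, whereas the MIKC* genes stay between 0.392 and 3.46.

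The other 128 genes described as MADS were under the sum and were not members. Of these, 72 had no count in any sample, and the median sum was 0. Only 1 of them passed the filter on low counts, and it did not differ between the conditions. Among 40 genes described as AGL80, AGL61 or AGL62, type I factors of the central cell and endosperm in *Arabidopsis*, 1 was a member, an AGL61 gene on A12. None of the 9 genes described as SVP, a repressor of flowering in *Arabidopsis*, reached the sum. The members just inside the limit had sums of 65 (LOC107918294), 68 (LOC107954594) and 80 (LOC107886991), and the genes just outside had 59 (LOC107908410), 56 (LOC121203426) and 53 (LOC107957842).

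The question of the experiment was how gene expression in ovules responds to Put. Of the 52 members, all of which passed the filter on low counts, 12 were higher and 7 were lower with Put at an adjusted p under 0.05 (edgeR, quasi-likelihood test). That is 36.5% of the members, while the background, the share of all 51764 tested genes that passed, was 36.6%. The members therefore passed about as often as any tested gene. By direction, 23.1% of the members were higher against a background of 18.4%, and 13.5% were lower against 18.2%. The median log2 fold change was 0.05 over the members and 0.00088 over all tested genes.

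The changes were small. None of the 52 genes passed with a log2 fold change as large as 1 in either direction, a size that 5.72% of all tested genes reached. Among genes that passed, the median absolute log2 fold change was 0.28 for the members and 0.43 for all genes, and the largest of a member was 0.60. The share that passed was larger among genes with more counts. Of 22 members with a mean count of at least 200, 17 passed (77.3%, background 52.8%), and of the 30 with fewer counts 2 passed (6.67%, background 24.5%). The CK and Put values did not overlap for 23 members (44.2%, background 45.4%). All but 1 of the genes that passed, LOC107909849, carry both the MADS and the K-box domain in the annotation (18 of 30 such genes), whereas none of the 14 members with a MADS domain alone passed (2 at an unadjusted p under 0.05, 0 with DESeq2 or limma). These 14 all had a mean count under 200, where 24.5% of all tested genes passed, so domain and count cannot be told apart here. Of members on A chromosomes 7 of 25 were higher and 3 lower, and of those on D chromosomes 5 of 27 were higher and 4 lower. With an offset that follows gene length, 6 members instead of 12 were higher, and the 6 that no longer passed were LOC107959522, LOC107904906, LOC107959674, LOC107955321, LOC107931466 and LOC107909434.

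**Figure D2:**
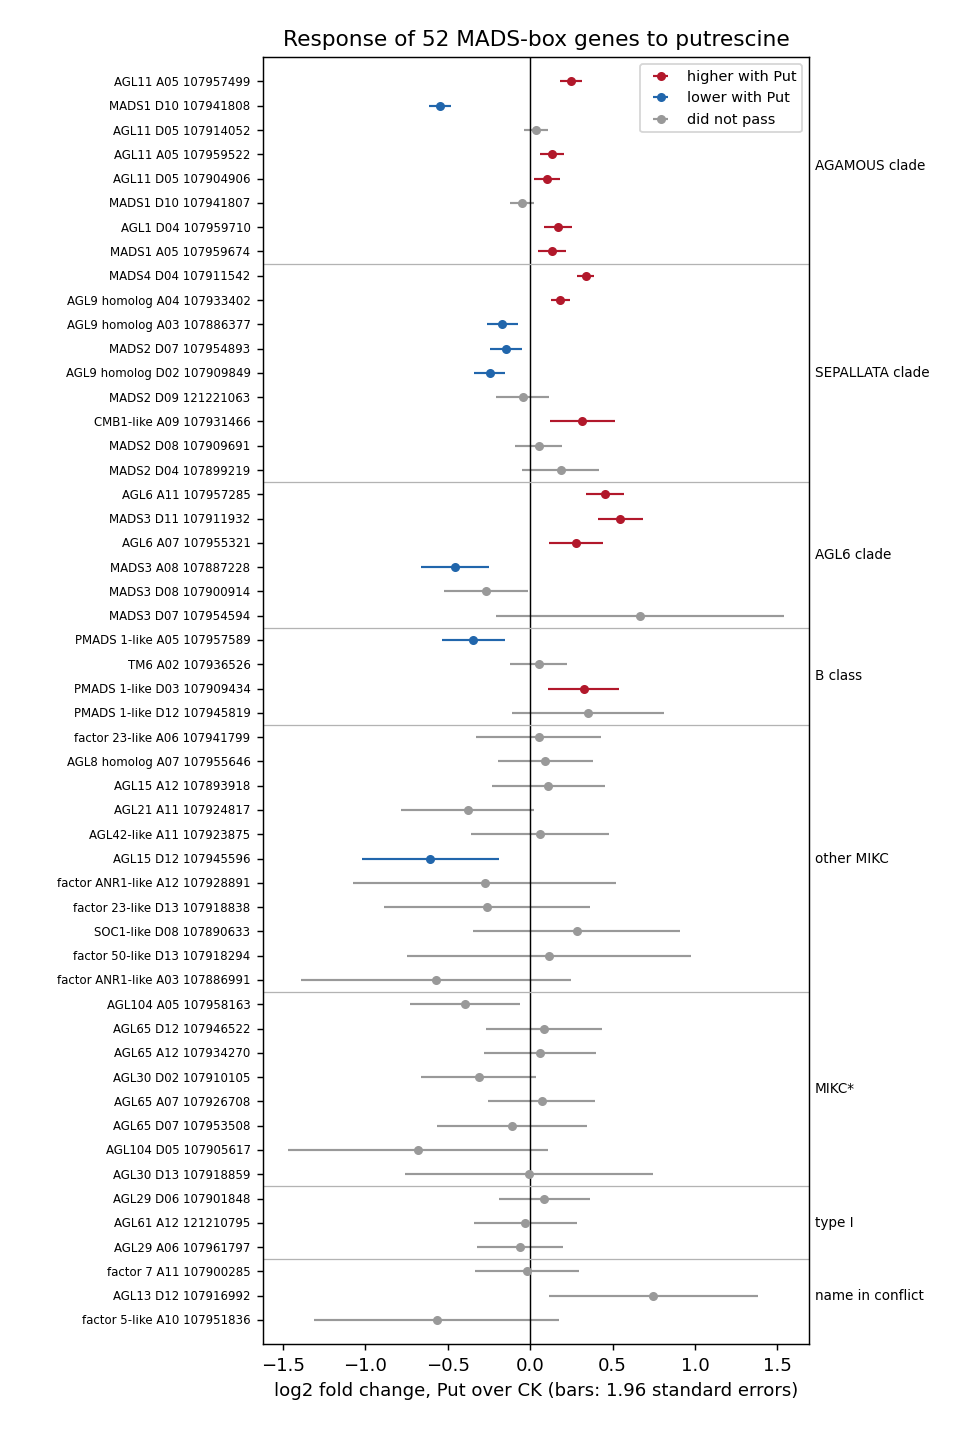
Log2 fold change of Put over CK for the 52 MADS-box genes (edgeR, points) with their normal 95% intervals (bars), in red for 12 genes higher with Put, in blue for 7 lower and in grey for 33 that did not pass. Genes of opposite direction stand within the AGAMOUS, SEPALLATA and AGL6 clades, and the widest bars belong to genes with few counts.

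In CK the most abundant MADS-box transcript was LOC107941808 on D10 (2981058 to 2985760, minus strand), described as MADS1 and annotated with the protein entry of AGAMOUS, the factor that specifies stamens and carpels and ends the floral meristem in *Arabidopsis*. Its FPKM was 148, 145 and 141 in CK and 93.7, 103 and 101 in Put. The Put samples all lay below the CK samples, and the count fell by 0.55 on the log2 scale (SE 0.03, adjusted p = 3.9e-20, edgeR). The level of 145 ± 3.52 FPKM in CK was above that of every other member, although its lowest CK sample lay just above the highest of LOC107911542, and 99.0 ± 4.75 in Put placed the gene below LOC107911542, LOC107957499 and LOC107933402, in a range that overlapped that of LOC107914052, an AGL11 gene.

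Directly beside it on D10, 5260 bp away, lies a gene with the same description and entry, LOC107941807 (2965642 to 2975797, minus strand). Its FPKM was 65.9, 62.7 and 64.8 in CK and 62.3, 60.1 and 64.2 in Put, so the ranges overlapped. Its log2 fold change was -0.05 (SE 0.04, 95% interval -0.12 to 0.02, adjusted p = 0.32, edgeR). The counts of LOC107941808 over those of this neighbour gave a ratio of 1.70 ± 0.0533 in CK and 1.21 ± 0.08 in Put (n = 3). The ratio was lower in each Put sample than in any CK sample (exact permutation test, two-sided p = 0.1, the smallest that 3 against 3 allows, adjusted over 6 ratios p = 0.1). Each of the 6 ratios sets a gene with a lower log2 fold change over one with a higher, and these ratios were not planned. Their p-values, here and for the A10, SEPALLATA and AGL6 ratios below, are therefore a description.

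The same arrangement is found on A10, where a pair of genes is described as AGAMOUS-like without the word MADS and so was not taken by the rule. LOC107925198 (3036978 to 3041719) had FPKM of 92.6, 96.5 and 90.2 in CK and 60.7, 60.6 and 63.6 in Put, which was a fall without overlap (log2 fold change -0.59, SE 0.04, adjusted p = 3.6e-19, edgeR). LOC107925196 (3020406 to 3031146) had 76.9, 69.2 and 71.1 in CK and 82.1, 73.5 and 79.3 in Put. These ranges overlapped, and the gene passed narrowly as higher (0.12, SE 0.04, adjusted p = 0.030, edgeR), a call that was lost without CK replicate 2 or 3 (adjusted p = 0.17 and 0.085), without Put replicate 1 or 3 (0.22 and 0.098), with DESeq2 (0.085) and with every limma setting, in all in 12 of 18 alternatives. The ratio of their counts was 1.501 ± 0.113 in CK and 0.919 ± 0.0512 in Put (exact p = 0.1). On both chromosomes the gene at the higher coordinates was thus lower with Put, while its neighbour had a log2 fold change of -0.05 or 0.12.

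**Figure D3:**
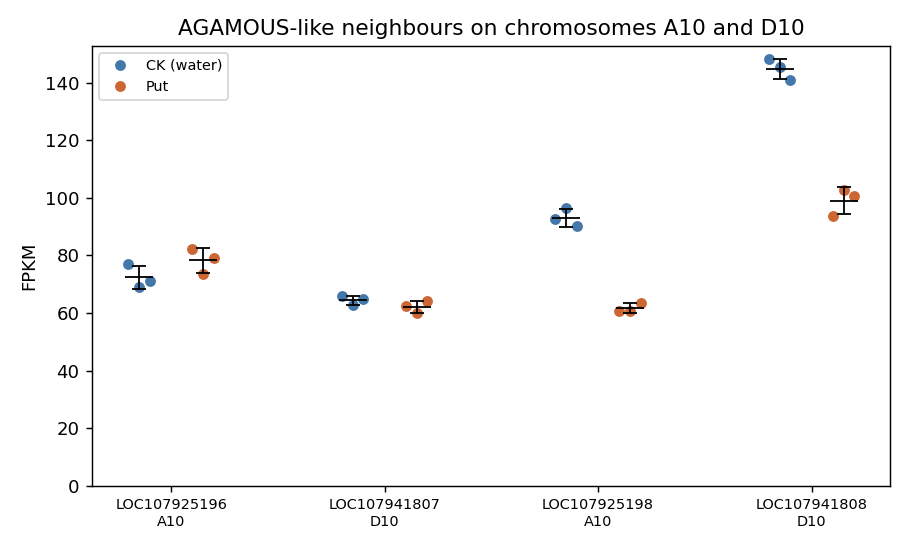
FPKM of the AGAMOUS-like neighbours on A10 and D10 in 3 CK samples (blue) and 3 Put samples (orange), with the mean and SD as bars. LOC107925198 and LOC107941808 are lower in every Put sample than in any CK sample, whereas the CK and Put ranges of LOC107925196 and LOC107941807 overlap.

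The other large contribution of this clade came from 4 genes described as AGL11, named SEEDSTICK in *Arabidopsis*, where it specifies ovule identity with the SHATTERPROOF genes. They sit at a pair of loci on A05 and D05, matched here by position along the chromosome. LOC107957499 on A05 (31666527 to 31671147) had FPKM of 119, 119 and 121 in CK and 145, 140.4 and 139.9 in Put. All Put samples were above all CK samples, a rise of 18.7% (log2 fold change 0.25, SE 0.03, adjusted p = 1.9e-08, edgeR). Its D05 counterpart LOC107904906 (27218898 to 27223586) went from 78.2, 76.1 and 77.3 to 82.4, 83.2 and 82.9 FPKM. These groups did not overlap either, but the log2 fold change was 0.10 (SE 0.04, adjusted p = 0.034, edgeR), and the call was lost when CK replicate 2 or 3 or any Put replicate was left out, with library size alone and with DESeq2. With the offset that follows gene length it turned to -0.02 (adjusted p = 0.68).

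At the second locus, LOC107959522 on A05 (27594597 to 27599141) rose from 79.7, 77.6 and 79.1 to 89.1, 84.3 and 85.5 FPKM (log2 fold change 0.13, SE 0.04, adjusted p = 2.3e-03, edgeR). Its D05 counterpart LOC107914052 (24185345 to 24189772) had 84.5, 91.5 and 87.9 FPKM in CK and 88.1, 93.8 and 87.9 in Put, which overlapped (0.03, SE 0.04, 95% interval -0.04 to 0.11, adjusted p = 0.52). Thus 3 of 4 AGL11 genes passed as higher, with the largest change at LOC107957499. The background was 18.4% higher over all tested genes. Of those with a mean count of at least 200, as all 4 had, 52.8% passed in either direction. With the offset that follows gene length the call of LOC107959522 was lost (adjusted p = 0.24, edgeR).

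The SHATTERPROOF type was represented by LOC107959710 on D04 (6226487 to 6236735), described as AGL1, and LOC107959674 on A05 (104483760 to 104494244), described as MADS1 with the protein entry of AGL1. SHATTERPROOF proteins form the margin of the fruit valve in *Arabidopsis* and share in ovule identity. LOC107959710 had FPKM of 42.6, 44.6 and 40.6 in CK and 47, 46.8 and 49.4 in Put (log2 fold change 0.17, SE 0.04, adjusted p = 1.5e-03, edgeR). LOC107959674 had 40.2, 41.7 and 39.7 in CK and 42.9, 44.5 and 45.7 in Put (0.13, SE 0.04, adjusted p = 0.013, edgeR), a call lost without Put replicate 3. Both were higher in every Put sample. Summed over the 8 members of the clade, the level was 656 ± 4.0 FPKM in CK and 654 ± 3.01 in Put. There the fall of LOC107941808 and the rises of the AGL11 and SHATTERPROOF types nearly cancelled. The A10 genes are outside this sum because their description lacks MADS. LOC107925198 fell from a mean of 93.1 to 61.6 FPKM and LOC107925196 went from 72.4 to 78.3, so the near balance is stated for the members only.

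Among the SEPALLATA genes, those with the protein entry of the AGL9 homolog (SEPALLATA3 in *Arabidopsis*, a hub of MADS complexes) split by chromosome. LOC107911542 on D04 (57557323 to 57562674), described as MADS4, had FPKM of 141, 141 and 140.0 in CK and 177, 176 and 179.6 in Put. It rose by 26.4% (log2 fold change 0.34, SE 0.03, adjusted p = 8.9e-16, edgeR) and was the most abundant member in Put. Its counterpart LOC107933402 on A04 (88518939 to 88524322) went from 118, 117 and 121 to 139, 131 and 134 FPKM (0.18, SE 0.03, adjusted p = 1.2e-06, edgeR). Both genes were higher in every Put sample.

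A second set with the same protein entry moved the other way. LOC107886377 on A03 (77121495 to 77125044) went from 86.4, 77.1 and 84.8 FPKM in CK to 72.4, 76.6 and 71.7 in Put (log2 fold change -0.17, SE 0.05, adjusted p = 4.5e-03, edgeR), a call lost without CK replicate 1. LOC107909849 on D02 (56090394 to 56094416), with SEPALLATA3 as a synonym and only the K-box among its annotated domains, went from 31.8, 31.2 and 30.1 to 27.5, 26.8 and 24 (-0.25, SE 0.05, adjusted p = 5.0e-05, edgeR). The Put samples of both genes were below their CK samples, and those of LOC107886377 only narrowly. The count ratio of the A03 over the A04 gene was 0.360 ± 0.0176 in CK and 0.282 ± 0.0173 in Put, and that of the D02 over the D04 gene 0.313 ± 0.00773 and 0.209 ± 0.0171, each without overlap (exact p = 0.1).

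The remaining SEPALLATA genes were described as MADS2 or CMB1-like, and most carry the entry of SEPALLATA 1. LOC107954893 on D07 was lower with Put, from 42.8, 41.8 and 41.0 to 39.5, 36.5 and 37.3 FPKM (log2 fold change -0.15, SE 0.05, adjusted p = 0.014, edgeR), a call lost without CK replicate 1 or Put replicate 2. LOC107931466 on A09 was higher, from 13.7, 16.8 and 14.6 to 19.3, 18.0 and 18.9 FPKM (0.32, SE 0.10, adjusted p = 9.1e-03, edgeR), a call lost without CK replicate 1. The 3 MADS2 genes on D09, D08 and D04 did not pass, with log2 fold changes of -0.04, 0.05 and 0.19. Those on D08 and D04 list a K-box and domains of other proteins but no MADS domain, so their counts may include reads of a merged gene model. In sum the 9 members of the clade stood at 466 ± 5.8 FPKM in CK and 504 ± 6.43 in Put.

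The AGL6 clade held the members with the largest rises that passed. AGL6 acts in floral patterning in grasses and petunia and overlaps there with the SEPALLATA genes. LOC107957285 on A11 (8214516 to 8217998) had FPKM of 28.1, 30.5 and 31.1 in CK and 42.3, 41.4 and 39.2 in Put (log2 fold change 0.46, SE 0.06, adjusted p = 5.0e-09, edgeR). LOC107911932 on D11 (7629257 to 7632736), described as MADS3 with the AGL6 protein entry, went from 20.3, 17.8 and 21.0 to 26.6, 29.8 and 29.9 (0.55, SE 0.07, adjusted p = 3.1e-09, edgeR). The rises were 37.1% and 46.1%, and neither gene showed overlap between CK and Put.

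On chromosomes 08 only the A copy passed, and it was lower. LOC107887228 on A08 (103600016 to 103610539) had FPKM of 9.97, 10.2 and 10.2 in CK and 8.07, 7.5 and 6.49 in Put, a fall without overlap (log2 fold change -0.46, SE 0.11, adjusted p = 3.7e-04, edgeR). LOC107900914 on D08 had 6.99, 6.97 and 5.60 in CK and 4.47, 5.28 and 6.52 in Put. These overlapped and the gene did not pass (-0.27, SE 0.13, adjusted p = 0.10, edgeR), although it did without CK replicate 3 or Put replicate 3 (adjusted p = 0.041 and 0.021). It also passed as lower with the offset that follows gene length (adjusted p = 0.039, edgeR). The count ratio of the A08 over the A11 gene was 0.412 ± 0.017 in CK and 0.218 ± 0.0156 in Put, and that of the D08 over the D11 gene 0.383 ± 0.0724 and 0.215 ± 0.0305 (exact p = 0.1 for each).

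A further locus lies on chromosomes 07. LOC107955321 on A07 was higher with Put, from 15.1, 18.0 and 14.7 to 19.9, 20.05 and 18.0 FPKM (log2 fold change 0.28, SE 0.08, adjusted p = 5.9e-03, edgeR), with the highest CK sample level with the lowest Put sample. Its D07 counterpart LOC107954594, which has no annotated domain, had counts of 12, 9 and 7 in CK and 9, 11 and 20 in Put (0.67, SE 0.45, adjusted p = 0.25). The A07 level was 31.3 times that of D07 as a mean over the 6 samples. The clade as a whole stood at 82.6 ± 1.43 FPKM in CK and 103 ± 1.89 in Put.

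B class factors specify petals and stamens, and their transcripts were not abundant in these ovules. LOC107957589 on A05, with the entry of DEFICIENS, had FPKM of 23.4, 28.9 and 23.3 in CK and 17.4, 19.3 and 22.8 in Put (log2 fold change -0.35, SE 0.10, adjusted p = 3.8e-03, edgeR), a call lost without CK replicate 2 or Put replicate 1. LOC107909434 on D03, with the PMADS 1 entry, went from 8.34, 8.62 and 7.13 to 9.65, 9.35 and 11.1 (0.32, SE 0.11, adjusted p = 0.016, edgeR), a call lost without CK replicate 3 or Put replicate 3. In both the CK and Put samples were separate, though by a small margin. LOC107936526 on A02 (TM6) and LOC107945819 on D12 did not pass, with log2 fold changes of 0.05 and 0.35.

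Only 1 of the 25 members outside these clades passed with edgeR, and 0 with DESeq2. All 25 had a mean count under 200, where 24.5% of all tested genes passed. LOC107945596 on D12 (38788921 to 38793486), described as AGL15, which maintains embryonic growth in *Arabidopsis*, had counts of 52, 74 and 76 in CK and 49, 37 and 33 in Put. The corresponding FPKM of 1.72, 2.40 and 2.52 and of 1.71, 1.40 and 1.23 came close at CK replicate 1 and Put replicate 1. Its log2 fold change was -0.60 (SE 0.21, adjusted p = 0.020, edgeR), and the call was lost without CK replicate 2 or 3 or Put replicate 2 or 3 and with DESeq2. The A12 copy LOC107893918 had counts of 78, 91 and 62 in CK and 72, 67 and 84 in Put (0.11, SE 0.17, adjusted p = 0.67), and the ratio of the copies did not separate the conditions (exact p = 0.2).

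The MIKC* genes, which act in pollen in *Arabidopsis*, comprised 8 members described as AGL104, AGL65 or AGL30. None passed (1 at an unadjusted p under 0.05, 0 with DESeq2 and 0 with limma), and their log2 fold changes ran from -0.68 to 0.08. They had 0.392 to 3.46 FPKM and 84 to 500 counts over 6 samples, and the standard errors of the log2 fold changes ran from 0.166 to 0.402. The pair of AGL104 genes had the lowest values, -0.40 (SE 0.17, adjusted p = 0.064) for LOC107958163 on A05 and -0.68 (SE 0.40, adjusted p = 0.19) for LOC107905617 on D05. LOC107958163 passed as lower without Put replicate 3 (adjusted p = 0.017, edgeR). It also passed with library size alone (0.048) and with the offset that follows gene length (0.026). The 3 type I genes were a pair described as AGL29 and the AGL61 gene, which specifies the central cell in *Arabidopsis*. None passed (0 at an unadjusted p under 0.05, 0 with DESeq2 or limma), with log2 fold changes of 0.09, -0.06 and -0.03 and levels between 3.17 and 7.93 FPKM.

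The other MIKC genes included homologs of AGL8 (FRUITFULL in *Arabidopsis*), AGL21, AGL42, SOC1 and ANR1 and lay between 0.121 and 3.03 FPKM. The name and the protein entry disagree for several members. LOC107924817 is described as AGL21 with an AGAMOUS entry, LOC107890633 as SOC1-like with the entry of a sugar transporter, and LOC107899219 as MADS2 with the entry of a UFM1-protein ligase, and none of these passed. A further 3 were placed in no clade. LOC107916992 on D12 is described as AGL13 but has the entry of CAULIFLOWER, and its counts of 18, 13 and 22 in CK and 31, 22 and 27 in Put gave a log2 fold change of 0.75 (SE 0.32, adjusted p = 0.065, edgeR). LOC107900285 is described as MADS-box transcription factor 7 with the entry of AGL104, and LOC107951836 as factor 5 with a domain of TatD nucleases beside its K-box. None of the 3 passed, except LOC107916992 without CK replicate 3 (adjusted p = 0.046).

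Copies on the A and D chromosomes were compared next. Pairing by the same description and chromosome number gave 8 pairs, of which 5 had the same sign in both copies, and in 1 both copies passed. The AGL11 genes share both description and chromosome number, so they were paired by position along the chromosome as well. A further 7 pairs were made by protein entry after the values were seen, and they include the AGAMOUS-like genes of A10. In 5 of these both copies passed in the same direction, which is a description because the pairing followed the values. Not all genes with a shared entry were paired. LOC107931466 on A09 and LOC121221063 on D09 share the SEPALLATA 1 entry but were not paired, with log2 fold changes of 0.32 and -0.04. LOC107936526 on A02 and LOC107909434 on D03, both with the PMADS 1 entry, were not paired either (0.05 and 0.32). The ratio of the copies separated the conditions in 3 of the 15 pairs at the smallest possible exact p of 0.1 (0.5 after adjustment over the 15), and these were LOC107957499 with LOC107904906, LOC107933402 with LOC107911542, and LOC107925196 with LOC107941807. For LOC107957499 the level was 1.64 times that of its D05 copy, and for LOC107933402 0.796 times that of its D04 copy, as means over the 6 samples.

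**Figure D4:**
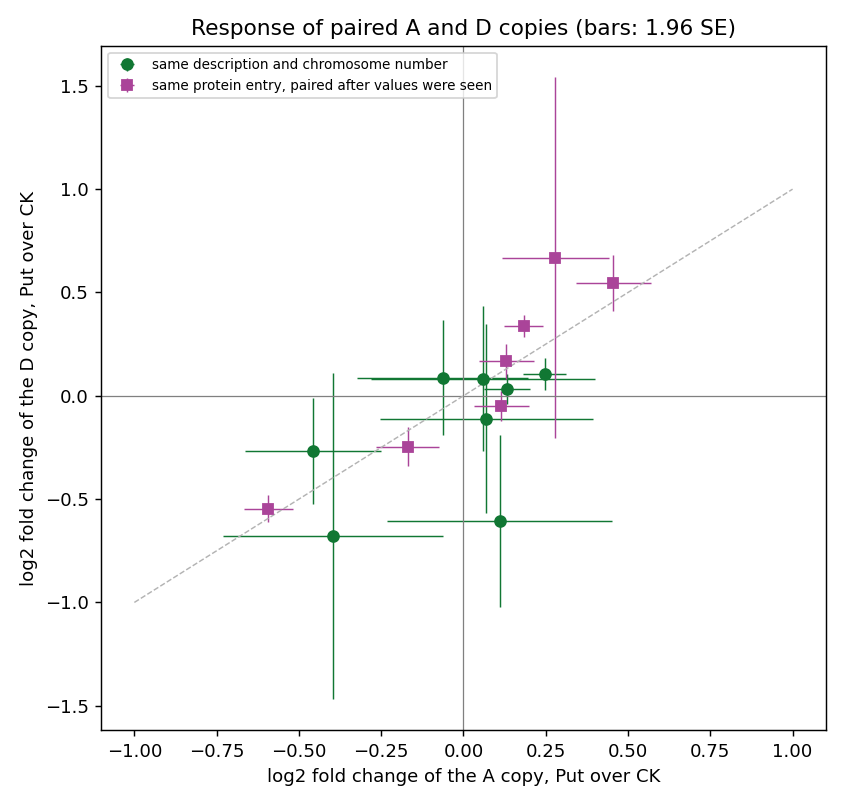
Log2 fold change of Put over CK in the A copy (horizontal axis) and the D copy (vertical axis) of 15 pairs, with normal 95% intervals as bars and a dashed line where the copies are equal. In 11 of 15 pairs both copies have the same sign. These are 5 of the 8 pairs by description and chromosome number and 6 of the 7 made after the values were seen. The AGL15 pair, at 0.11 and -0.60, lies farthest below the line.

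The rule by description leaves out 27 protein-coding genes that carry the MADS domain in the annotation, of which 9 were tested, 2 were higher (LOC107925196 and LOC107904771) and 1 lower (LOC107925198), a share of 33.3% near the background of 36.6%. Both higher calls were lost with limma on filtered FPKM. Leaving out CK replicate 2 or 3 or Put replicate 1 or 3 left 1 higher, and leaving out CK replicate 2 gave 2 lower. Among the 9 are 4 genes described as TRANSPARENT TESTA 16-like, named after the *Arabidopsis* factor of seed coat endothelium. Their means over the 6 samples lay between 25.2 and 64.5 FPKM. None passed (0 at an unadjusted p under 0.05, with DESeq2 or with limma), with log2 fold changes of 0.01 (LOC121228230), 0.05 (LOC107898867), -0.04 (LOC107918783) and -0.04 (LOC107894052). The widest of their 95% intervals reached from -0.17 to 0.08. LOC107910638 on A07, described as SEPALLATA 1, had FPKM of 56.1, 59.3 and 58.6 in CK and 53.3, 53.2 and 54.6 in Put, without overlap, yet did not pass (-0.11, SE 0.05, adjusted p = 0.12, edgeR). It passed as lower with library size alone (adjusted p = 0.049), with the limma settings (0.040 to 0.045) and with the offset that follows gene length (9.0e-06).

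Genes for anthocyanidin and leucoanthocyanidin reductase, enzymes of proanthocyanidin synthesis in the seed coat, where TRANSPARENT TESTA 16 acts in *Arabidopsis*, were read from the same fit. Of 14 such genes 8 were tested, 2 were higher and 5 lower (62.5% lower, background 18.2%). All tested ones but LOC107948529 had a mean count of at least 200. Among all genes with such counts 52.8% passed in either direction, against 87.5% of these 8, a difference that was not tested. The higher ones were LOC107931042 on A12, from 234, 239 and 237 to 264, 255 and 268 FPKM (log2 fold change 0.15, SE 0.02, adjusted p = 5.8e-07, edgeR), and LOC107938221 on A05 (0.06, SE 0.02, adjusted p = 0.015, edgeR), whose groups overlapped and whose call was lost in 10 of 18 alternatives, among them DESeq2, all limma settings and leaving out CK replicate 1 or Put replicate 3. With the offset that follows gene length it turned to -0.0331. The lower ones ranged from -0.13 (LOC107905961) to -0.42 (LOC107916908, which has the entry of a dihydroflavonol 4-reductase).

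Other genes named after regulators of flower and ovule development were read from the same fit. Of 233 protein-coding genes in this list 121 were tested, 9 were higher and 55 were lower, which is 45.5% lower against the background of 18.2% and against 13.5% of the MADS-box genes, and the median log2 fold change was -0.20. Whether the lists differ was not tested. Genes described as BEL1-like homeodomain proteins, a list apart from the BEL1 homologs among the ovule markers, gave 18 lower and 1 higher of 26. LOC107889215 on A09 had a log2 fold change of -1.48 (SE 0.13, adjusted p = 3.6e-14, edgeR). SEUSS and LEUNIG are corepressors that bind MADS proteins in *Arabidopsis*, and of 6 genes each, 5 SEUSS genes and all 6 LEUNIG genes were lower, the latter by -0.16 to -0.34. These SEUSS and LEUNIG genes all had a mean count of at least 200, where 52.8% of all tested genes passed in either direction. Genes described as LEUNIG_HOMOLOG gave 1 higher and 0 lower of 11. APETALA 2, which limits AGAMOUS in *Arabidopsis* flowers, gave 6 lower and 0 higher of 10. Of 16 genes described as SUPERMAN, a factor that bounds the stamen whorl, 2 were tested and both were higher. LOC121203032 went from 1.40 ± 0.114 to 3.43 ± 0.09 FPKM. LOC107947632, with the entry of RABBIT EARS, had counts of 3, 4 and 0 in CK and 18, 13 and 10 in Put. Genes described as CONSTANS or CONSTANS-LIKE, named after a regulator of flowering time, made up 47 of the 121 tested genes and gave 5 higher and 14 lower. WUSCHEL-related genes gave 0 higher and 4 lower of 8. LOC107947632, LOC107958141 (WUSCHEL-related, lower) and LOC107959225 (BEL1-like, lower) passed the filter on low counts only through the group with their higher counts. Their calls therefore carry no weight on their own.

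**Figure D5:**
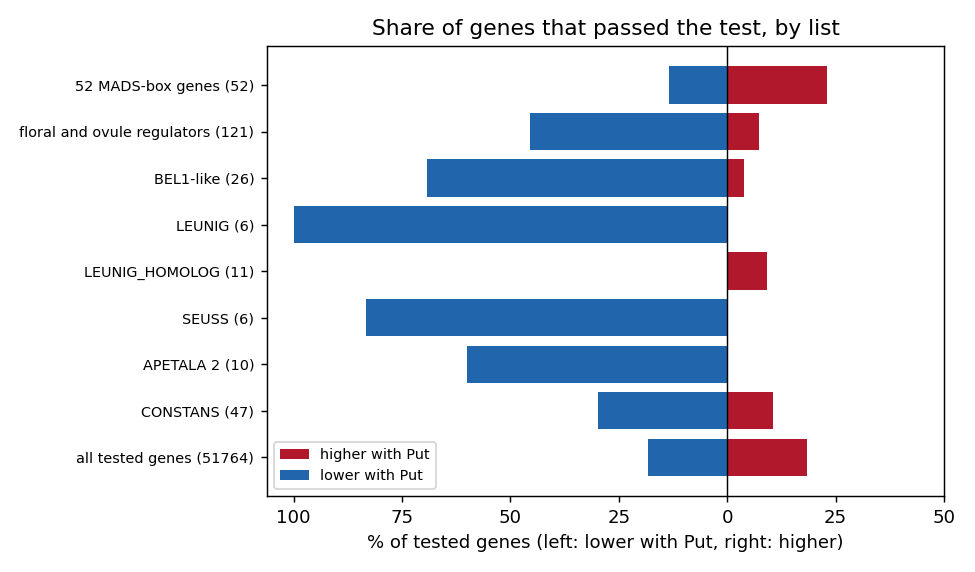
Percentage of tested genes that were lower (blue, to the left) or higher (red, to the right) with Put at an adjusted p under 0.05 (edgeR), for the 52 MADS-box genes, the list of floral and ovule regulators and its larger groups, with the number of tested genes in brackets. The MADS-box genes were lower in 13.5% and the regulators in 45.5%, and all tested genes in 18.2%.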

How the data were processed

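RNA-seq of ovules with water (CK) or Put was analysed, with 3 samples each. The authors deposited raw counts per gene, without normalization, and FPKM, which are scaled by gene length, library and a factor between samples. HISAT2 2.0.5 and CASAVA are in the submitters' processing notes, and the counting program is not given in the sources used here. The RefSeq gene table held 99451 of the 100562 listed genes. A gene needed 3 counts, or 0.154 to 0.177 CPM, to be told from 0, and this covers counting error only.

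Counts were fitted over the whole table in R 4.3.3 with edgeR 4.0.16 (filterByExpr, TMM, quasi-likelihood test, Benjamini-Hochberg adjustment). Ratios between genes were formed from counts plus 0.5 on the log2 scale. Alternatives used DESeq2 1.42.0, limma 3.58.1 on log2(FPKM + 1) or log2(FPKM + 0.1) after a filter at a mean FPKM of 0.5 and without it, other scalings, other filters, an adjusted p of 0.01, a minimum log2 fold change of 1, an offset that follows gene length, the replicate number as a block, and leaving out each replicate. The tests were run on simulated counts with the same spread for all genes. Recovery was required only for log2 fold changes of 1 with edgeR. No member passed with a change of that size, so the smaller calls were not covered by this requirement.

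Values in every sample were given for the 10 members with the highest FPKM, for members that passed with the 10 largest and 10 smallest log2 fold changes, and for their A or D copies. All genes of the other lists that passed could be named. The members, lists and rules were chosen with earlier results of these data known. Clades were assigned from the description and the protein entry. No sequences are shown, and pairs of copies were made from descriptions, protein entries and, for AGL11, position, because protein sequences were not used here. Coordinates are 1-based and of Gossypium_hirsutum_v2.1.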

Additional observations from a re-analysis of the deposited data

How the results depend on the processing

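With 12 members higher and 7 lower in the reported fit, a minimum absolute log2 fold change of 1 left 0 and 0. The offset that follows gene length gave 6 higher and 9 lower, and turned LOC107904906 to -0.0248 and the reductase LOC107938221 to -0.0331 on the log2 scale. Leaving out 1 replicate gave 9 to 11 members higher and 5 to 8 lower. The regulators, with 9 higher and 55 lower, numbered 7 to 10 and 47 to 53 without a replicate, and 2 and 7 with the minimum fold change. Reductases numbered 2 higher and 5 lower. The higher count was 1 with library size alone, DESeq2, each limma setting, an adjusted p of 0.01 and the length offset, 0 with the minimum fold change, and 1 to 2 without a replicate. The lower count was 0 with the minimum fold change and 5 without any replicate. Other MADS-domain genes numbered 2 higher and 1 lower. The higher count was 1 with library size alone, DESeq2, limma without a filter, an adjusted p of 0.01 and the length offset, 0 with both filtered limma settings and the minimum fold change, and 1 to 2 without a replicate. The lower count was 2 with library size alone, all limma settings and the length offset, 0 with the minimum fold change, and 1 to 2 without a replicate. The minimum fold change removes calls by its construction, and otherwise the cause was not tested.

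Labels give CK and Put the same replicate numbers, but no source pairs the samples. The deviations of same-numbered samples correlated at -0.005, -0.0085 and -0.0133. With the number as a block, 12 members were higher and 7 lower, the regulators gave 9 and 54, and 18661 instead of 18936 of all genes passed. No named gene changed its call under the block.

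Precision was lower for the 30 members with a mean count under 200, and the standard errors of the MIKC* genes ran from 0.166 to 0.402 on the log2 scale. With 3 samples a group, exact tests of a ratio cannot go below 0.1. Among members, the calls of LOC107904906 and LOC107945596 were lost most often, in 10 and 8 of 18 alternatives. Outside the members, LOC107925196 lost its call in 12 and LOC107938221 in 10.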
